A study of Mus musculus with 24 samples.

Results

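Ribosome-bound RNA was set against total RNA from the same lysates of macrophages labelled as HuR knockout and kept in hypoxia. Members were all genes that the TRAP and total RNA tables shared by Ensembl identifier and that reached at least 1 TPM in at least 3 of the 6 libraries compared, which left 11378 of 52636 genes. The 6 libraries, of 24 in the series, are the TRAP and the total RNA library of mice KO-176, KO-281, KO-301, and the mouse number joins the fractions of a lysate. These mice carried Csf1r-iCre.HuRfl/fl, in which the Csf1r promoter drives Cre in mononuclear phagocytes, and the 3 control mice, HET-97, HET-102, HET-129, carried Csf1r-iCre.HuR+/fl, so that the control mice also had Cre and a floxed allele. All 6 mice expressed ribosomal protein L10a fused to EGFP, and the labels do not give the promoter or the cells that express it. Bone marrow of mice aged 8 to 12 weeks was grown for 6 days with L-cell-conditioned medium into macrophages, and separate cultures of each mouse then stood at 1% oxygen (hypoxia) or 20% oxygen (normoxia) for 18 h. Cells were lysed in detergent, lysates were cleared by centrifugation and then divided, so that total RNA here is RNA of the cleared lysate, and poly(A) libraries were made of both fractions. The groups used are the hypoxic labelled knockouts, and, for the size of the same TRAP-to-total difference elsewhere, the hypoxic controls and the normoxic labelled knockouts, with 3 mice in each. For a few single genes the normoxic controls, from the same 3 control mice, are given too.

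In translating ribosome affinity purification (TRAP), a tagged large-subunit protein is pulled down with the mRNAs that ribosomes are on, and the share of an mRNA in that RNA is read against its share in the lysate. HuR, encoded by Elavl1, is an RNA-binding protein that binds AU- and U-rich stretches of mRNA 3′ untranslated regions (UTRs) and is known for stabilising and promoting translation of inflammatory and growth mRNAs. Translation is itself regulated for particular classes of mRNA. Ribosomal protein and elongation factor mRNAs respond to mTOR signalling through a pyrimidine tract at their 5′ end, ferritin and ferroportin mRNAs are held back by iron regulatory proteins at a 5′ hairpin, and mRNAs of the mitochondrial genome are translated by separate ribosomes inside the organelle, which lack L10a.

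Elavl1, the gene targeted, was at 1.75, 23.5 and 12.2 TPM in TRAP RNA, against 29.4, 34.9 and 26.1 TPM in total RNA of hypoxic labelled knockouts KO-176, KO-281, KO-301. In hypoxic controls HET-97, HET-102, HET-129 it was at 17.2, 16.3 and 10.5 TPM in TRAP RNA and 21.2, 59.8 and 24.9 TPM in total RNA, so that the labelled genotypes overlapped in both fractions. A value over the whole gene does not test the loss of the floxed exons, and the genotype is given here as labelled. Macrophage markers, 15 of 15 tested, summed to 20202, 20614 and 26004 TPM in TRAP RNA, against 27697, 28030 and 29138 TPM in total RNA. Of these markers 1 was called higher and 9 lower in TRAP RNA, with a median log2 difference of -0.45. Over all genes tested, against which each marker count here is to be read, 4.54% were higher and 46.7% lower, with a median of -0.58. The defining markers Cd79a, Cd3e, Elane, Ly6g and Hbb-bs, of B cells, T cells, neutrophils and erythroid cells, were at 0 in all 6 libraries. Other markers of these cells were detected: neutrophil markers, 4 of 12 tested, summed to 33.2, 22.4 and 121 TPM in TRAP RNA, against 59.1, 42.6 and 179.7 TPM in total RNA, with 0 higher and 2 lower. B cell markers, 2 of 8 tested, summed to 21.5, 13.7 and 4.83 TPM in TRAP RNA, against 27.6, 19.6 and 12.6 TPM in total RNA. Fibroblast and stromal markers summed to 0.918, 3.96 and 5.65 TPM in TRAP RNA, against 13.6, 9.84 and 56.2 TPM in total RNA, and the 3 of 10 that were tested were all called lower in TRAP RNA. TRAP libraries held 13878 to 14559 genes above 0 and total RNA libraries 16495 to 17152, and the part of either in the results below was not tested. In bulk RNA, fewer cells of a type and less RNA per cell cannot be told apart, and read depth is not known from TPM.

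Most genes had a smaller share of TRAP RNA than of total RNA. The median log2 difference, TRAP minus total RNA, was -0.58 over the 11378 genes, with -0.69, -0.44 and -0.57 in mice KO-176, KO-281, KO-301. With limma on log2(TPM + 1), each lysate as a block and Benjamini-Hochberg adjustment over all 11378 genes, 516 genes (4.54%) were higher in TRAP RNA and 5318 (46.7%) were lower at an adjusted p under 0.05. All 3 TRAP values stood above all 3 total RNA values for 406 genes (3.57%) and below them for 4361 (38.3%). TPM is a share, so a few abundant RNAs that fill TRAP libraries can lower the rest. When each lysate was shifted to a median difference of 0, 1933 genes (17%) were higher and 1629 (14.3%) lower, and counts on this scale, called centred below, are given beside list and class counts on the deposited scale. All 516 genes higher on the deposited scale were among the 1933, and all 1629 genes lower on the centred scale were among the 5318. Quantile normalization gave 1636 higher and 1509 lower, and rescaling each library to its nuclear coding genes without the ribosomal proteins gave 957 and 3615. Mouse KO-301 stood apart from KO-176 and KO-281 in both fractions. It had high levels of interferon-stimulated genes and low shares of ribosomal protein and mitochondrial transcripts, and without it 316 genes were higher and 3760 lower. Control mouse HET-129 was similar in genes looked at: in total RNA of hypoxic controls HET-97, HET-102, HET-129 Irf7 had 77.3, 14.3 and 858 TPM and Rpl10a 1738, 1855 and 878 TPM. The list median minus that of all genes was 1.20 for ribosomal proteins with all mice and 1.24 without KO-301, and -4.75 and -4.77 for mitochondrially encoded mRNAs and -0.30 and -0.34 for interferon-stimulated genes. Differences below are log2 values with the SE of the limma fit, whose spread is shared over all 24 libraries, and TPM values stand in the order of mice KO-176, KO-281, KO-301.

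**Figure D1:**
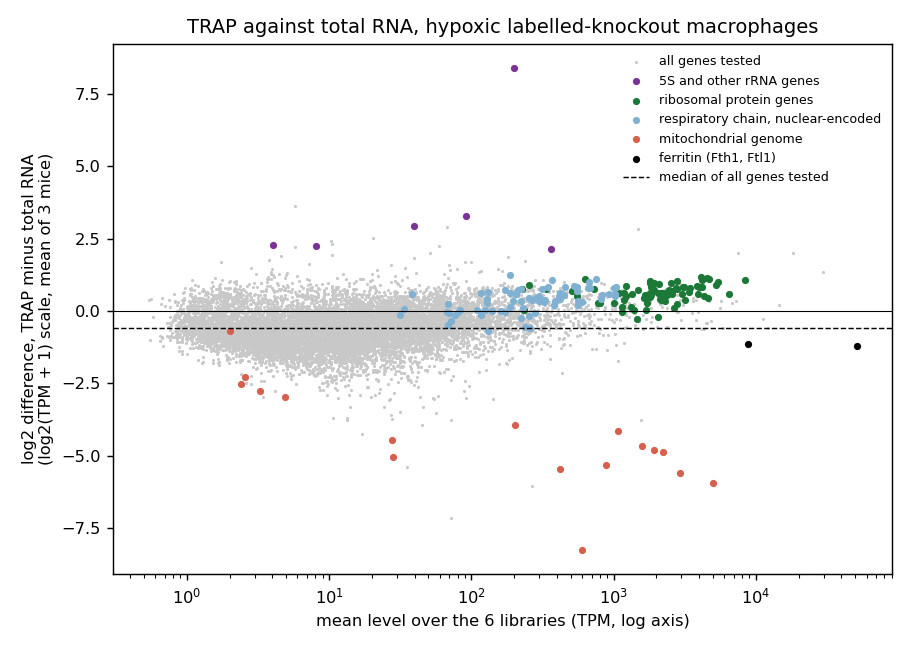
Each point is a gene, with its mean level over the 6 libraries in TPM on a log axis and its log2 difference, TRAP minus total RNA, on the vertical axis. Ribosomal protein genes (green) and rRNA genes (purple) lie mostly above 0, transcripts of the mitochondrial genome (red) reach -8.26, and the dashed line is the median of all genes, -0.58.

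The abundant RNA classes were divided unequally between the fractions. Transcripts of the mitochondrial genome made up 0.0616, 0.255 and 0.0264% of TPM in TRAP RNA, against 4.07, 4.56 and 1.20% in total RNA. Messages of cytosolic ribosomal proteins took 29.4, 25.5 and 14.9% of TRAP RNA, against 15.9, 17.4 and 9.74% of total RNA. Annotated features at rRNA loci, which are residual in poly(A)-selected libraries, took 6.30, 13.0 and 7.47% of TRAP RNA and 2.88, 3.34 and 1.89% of total RNA. The ferritin genes Fth1 and Ftl1 together held 2.90, 3.62 and 4.37% of TRAP RNA and 6.43, 9.14 and 9.68% of total RNA. All other nuclear protein-coding genes held 59.0, 55.2 and 71.0% of TRAP RNA and 68.6, 63.2 and 75.2% of total RNA. Each class differed in the same direction in the 3 mice, and mouse KO-301 had the lowest mitochondrial and ribosomal protein shares in both fractions.

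Mitochondrially encoded mRNAs had the largest median difference of the lists described. All 9 tested members were lower in TRAP RNA in all 3 mice and on the centred scale, with no overlap between fractions and a median of -5.32 (-6.01, -4.68 and -5.01 in mice KO-176, KO-281, KO-301). mt-Co1, a catalytic subunit of cytochrome c oxidase, had 176.1, 257 and 61.7 TPM in TRAP RNA, against 15194, 9849.5 and 4481 TPM in total RNA. Its difference was -5.95 ± 0.53, adjusted p = 9.7e-05. mt-Cytb, of complex III, had 117, 163 and 22.8 TPM in TRAP RNA, against 9393, 7252 and 763 TPM in total RNA (-5.59 ± 0.45, adjusted p = 9.7e-05). The complex I subunit mRNA mt-Nd2 had 15.6, 0 and 0 TPM in TRAP RNA, against 1394, 2032 and 168 TPM in total RNA, and its fitted difference, -8.26 ± 0.92 (adjusted p = 0.00017), depends on the pseudocount because 2 TRAP values are listed at 0. The mRNAs mt-Nd5, mt-Nd4, mt-Nd1, mt-Co2 and mt-Nd6 differed by -5.46, -5.32, -4.89, -4.47 and -4.14, all called lower. The mitochondrial rRNAs followed, with mt-Rnr1 at 48.8, 305 and 70.7 TPM in TRAP RNA, against 1455, 5162 and 2439.7 TPM in total RNA (-4.68 ± 0.37, adjusted p = 9.7e-05) and mt-Rnr2 at -4.79 (adjusted p = 0.0025). Of 6 mitochondrial tRNA genes tested 5 were lower, among them mt-Tw at -5.04 and mt-Tl1 at -3.95. Mouse KO-281 had the highest TRAP value of the 3 mice for all mitochondrial mRNAs and rRNAs named here except mt-Nd2. Its TRAP values were 762, 427 and 444 TPM for mt-Nd6, mt-Nd1 and mt-Rnr2.

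Messages of cytosolic ribosomal proteins were higher in TRAP RNA: 68 of 80 higher and 0 lower on the deposited scale, 78 higher and 0 lower on the centred scale, with a median of 0.62 (0.84, 0.50 and 0.56 by mouse) against -0.58 over all genes. Rpl37a, of the large subunit, had 6926, 6014 and 4250.1 TPM in TRAP RNA, against 2646, 3049.6 and 1960.4 TPM in total RNA, with no overlap (1.16 ± 0.12, adjusted p = 0.00011). The small-subunit Rps21 had 7483, 6503 and 4627 TPM in TRAP RNA, against 2915, 3573 and 2086 TPM in total RNA (1.12 ± 0.14, adjusted p = 0.00022). Rpl22 and Rpl38 differed by 1.12 ± 0.16 and 1.10 ± 0.15, both called higher with no overlap. Mouse KO-301 had the lowest values of these 4 genes in both fractions. The 3 TRAP values stood above the 3 total RNA values for 21 of 80 members, against 3.57% of all genes, while 70 of 80 were higher in each of the 3 lysates. The 12 members not called on the deposited scale, named after their values were seen, included Rpl3 (-0.04 ± 0.09), Rplp0 (-0.22 ± 0.12) and Rpl4 (-0.27 ± 0.11), and Rpl4 and Rplp0 were the members not called on the centred scale either. Rpl10a, whose protein carries the EGFP tag, had 2443, 1267 and 676 TPM in TRAP RNA, against 1494, 1003 and 484 TPM in total RNA (0.51 ± 0.10, adjusted p = 0.0022), a value between the lowest and highest of its class. Processed pseudogenes of these genes share sequence with them and reads could be split between copies.

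The snoRNA host RNAs, spliced RNAs that carry small nucleolar RNAs in their introns and of which several begin with a pyrimidine tract like that of ribosomal protein mRNAs, also leaned to TRAP RNA. Of 13 tested, 7 (53.8%) were higher, against 4.54% of all genes, and 0 lower (centred 10 higher and 0 lower), with a median of 0.44. Snhg6 had 286, 445 and 256 TPM in TRAP RNA, against 112, 203 and 209 TPM in total RNA (0.92 ± 0.18, adjusted p = 0.002), with no overlap. Snhg8 had 237, 295 and 117 TPM in TRAP RNA, against 109, 163 and 68.2 TPM in total RNA (0.91 ± 0.15, adjusted p = 0.00079). It was higher in each lysate, and the groups overlapped, with mouse KO-301 lowest in both fractions. Zfas1 and Epb41l4aos differed by 0.73 ± 0.12 and 0.64 ± 0.14, both called higher. Genes of 5S rRNA, the small RNA of the large ribosomal subunit, headed the list of genes higher in TRAP RNA. n-R5s193 had 133, 459 and 615 TPM in TRAP RNA and was listed at 0 in all 3 total RNA libraries, and n-R5s194 had 63.1, 139 and 291 TPM in TRAP RNA, against 2.87, 24.7 and 28.1 TPM in total RNA (3.27 ± 0.47, adjusted p = 0.00039). n-R5s115, n-R5s136 and n-R5s156 differed by 2.93, 2.26 and 2.26, and Mir6236 by 2.01 ± 0.29. The 5S rRNA genes are near-identical copies, so the values of single copies are uncertain.

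Nuclear-encoded subunits of the respiratory chain leaned towards TRAP RNA, unlike those of the mitochondrial genome. Of 75 nuclear-encoded respiratory chain subunits, 39 (52%) were higher and 4 (5.33%) lower in TRAP RNA, against 4.54% and 46.7% of all genes (centred 66 higher and 0 lower). Their median was 0.39 (0.48, 0.20 and 0.55 by mouse). Uqcr10, a small subunit of complex III, had 1189.7, 913 and 977 TPM in TRAP RNA, against 392, 519.6 and 506 TPM in total RNA (1.12 ± 0.19, adjusted p = 0.00095). Atp5j2 and Atp5k, small subunits of ATP synthase, differed by 1.06 ± 0.22 and 1.01 ± 0.16, and Ndufa3 of complex I by 0.85 ± 0.19, each with no overlap between fractions. The 4 members called lower, named after their values were seen, were Sdha (-0.35 ± 0.12), Uqcrc2 (-0.48 ± 0.14), Atp5b (-0.55 ± 0.16) and Atp5a1 (-0.61 ± 0.14), the flavoprotein of complex II, a core protein of complex III and the F1 beta and alpha subunits of ATP synthase. On the centred scale these 4 were not called, at 0.22, 0.09, 0.02 and -0.04. Mitochondrial ribosomal proteins had 14 of 78 higher and 5 lower (centred 52 higher and 0 lower; median 0.07). Mrpl14 had 136, 137 and 142 TPM in TRAP RNA, against 51.7, 41.3 and 34.3 TPM in total RNA (1.70 ± 0.24, adjusted p = 0.00033). Mrps2, Mrpl50 and Mrps27 were lower, at -0.94 ± 0.19, -0.83 ± 0.14 and -0.80 ± 0.19. Proteasome subunits, 34 tested, had a median of -0.02 with 0 higher and 5 lower on the deposited scale but 20 higher and 0 lower on the centred one, and Psmd12 and Psmd14, called lower on the deposited scale, were at -0.70 ± 0.19 and -0.65 ± 0.16.

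Among nuclear protein-coding genes, the largest differences towards TRAP RNA were those of Krcc1, Sp1, Mrpl14, Cmc1 and Arpp19. Krcc1 had 74.0, 121 and 100.4 TPM in TRAP RNA, against 22.9, 18.7 and 17.3 TPM in total RNA (2.25 ± 0.54, adjusted p = 0.0053). Sp1, a widely expressed zinc-finger transcription factor, had 5.06, 15.6 and 3.402 TPM in TRAP RNA, against 2.48, 0.675 and 0.507 TPM in total RNA (1.88 ± 0.73, adjusted p = 0.047), and the highest TRAP value was in mouse KO-281. Cmc1, which takes part in assembly of cytochrome c oxidase, had 119.5, 93.2 and 101 TPM in TRAP RNA, against 31.8, 31.2 and 39.8 TPM in total RNA (1.59 ± 0.42, adjusted p = 0.0088). All 3 genes had no overlap between fractions. Arpp19, an inhibitor of the phosphatase PP2A, differed by 1.46 ± 0.47, Pkig, an inhibitor of protein kinase A, by 1.40 ± 0.41, and Tbcb, a tubulin-folding cofactor, by 1.34 ± 0.36. Tssc4 and Snrnp35, a protein of the minor spliceosome, were called higher at 1.12 and 1.12, and so was Tmem134, annotated as a processed transcript, at 1.45. The calls of Krcc1, Mrpl14 and Cmc1 held without each mouse in turn. Those of Sp1 and Tssc4 were lost without any of the 3, those of Arpp19, Pkig and Tmem134 without mouse KO-176 or KO-301, that of Tbcb without KO-301 and that of Snrnp35 without KO-281.

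The largest differences away from TRAP RNA among nuclear protein-coding genes were larger than those towards it. Cltc, the clathrin heavy chain of coated vesicles, had 11.1, 8.28 and 7.43 TPM in TRAP RNA, against 172, 119.7 and 116 TPM in total RNA (-3.78 ± 0.46, adjusted p = 0.00023). Plekha2, an adaptor with pleckstrin homology domains, had 4.95, 4.45 and 3.93 TPM in TRAP RNA, against 95.02, 52.9 and 110.0 TPM in total RNA (-3.94 ± 0.70, adjusted p = 0.0011). The TRAP values of both lay within a narrow range in the 3 mice and far below total RNA. Ly6e, an interferon-induced surface protein, had 78.2, 106 and 469 TPM in TRAP RNA, against 968, 1839.8 and 5821 TPM in total RNA (-3.78 ± 0.66, adjusted p = 0.00097), with mouse KO-301 highest in both fractions. The small GTPase gene Rab43 had 0.941, 0.755 and 0.824 TPM in TRAP RNA, against 30.1, 14.0 and 33.3 TPM in total RNA (-3.78 ± 0.74, adjusted p = 0.0018). Ddx6, an RNA helicase of processing bodies that represses translation, had 1.55, 4.53 and 3.01 TPM in TRAP RNA, against 72.2, 62.4 and 20.5 TPM in total RNA (-3.59 ± 0.71, adjusted p = 0.0019). Ccnk, the cyclin partner of Cdk12, Pygo2, a Wnt coactivator, and Mapk14, the p38-alpha kinase, were lower by fitted differences of -3.32, -3.32 and -3.06. Evi2 stood at -3.74, Slc43a2, an amino acid transporter, at -3.53, Mbnl1, a splicing regulator, at -3.31 and Chtf8 at -3.09, and of these Mbnl1 lost its call on the centred scale (-2.74, adjusted p = 0.059). For Slc43a2 and Chtf8 mouse KO-281 was high in TRAP RNA, at 52.1 and 31.1 TPM, and their calls, like that of Mbnl1, were lost without mouse KO-176 or KO-301, while that of Mapk14 was lost without KO-176. The calls of Cltc, Plekha2, Ly6e, Rab43, Ddx6, Ccnk, Pygo2 and Evi2 held without each mouse in turn.

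**Figure D2:**
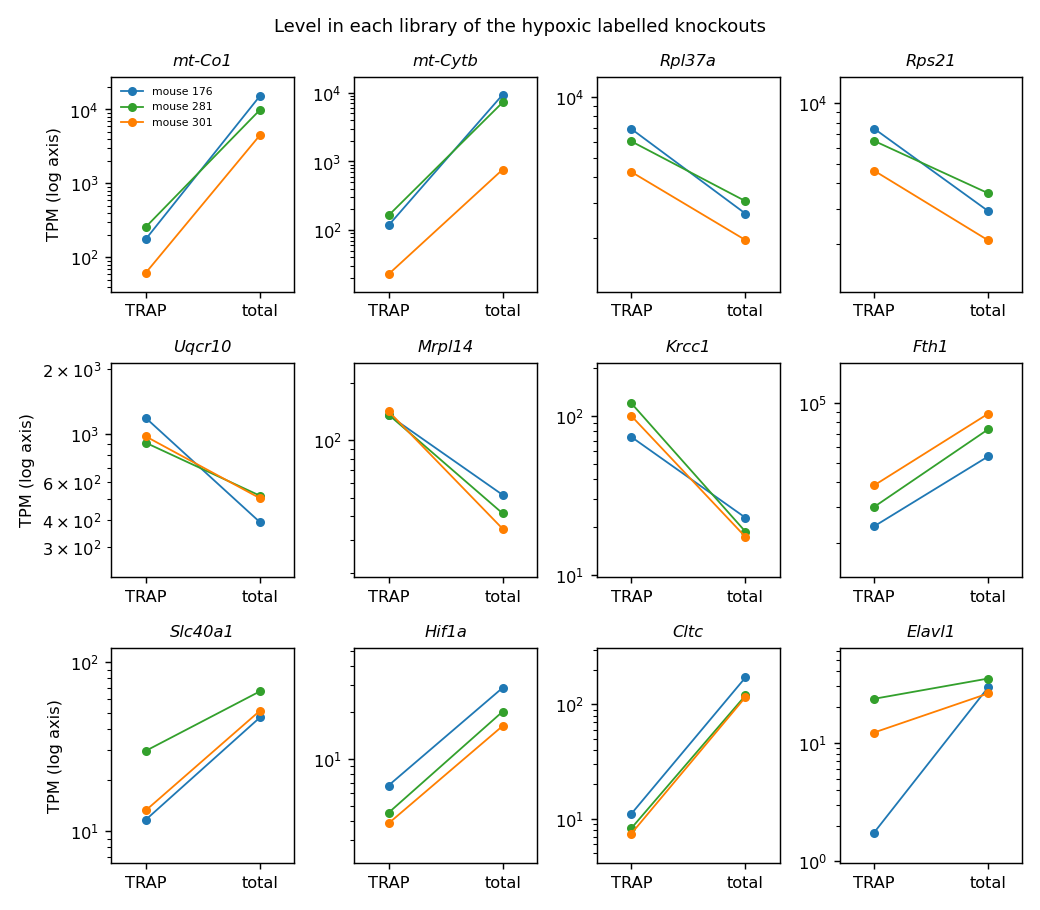
Level in TPM on a log axis of 12 genes in the TRAP and total RNA library of mice KO-176, KO-281, KO-301, with a line joining the fractions of a lysate. Lines rise to the right for mitochondrial genes, Fth1, Slc40a1, Hif1a, Cltc and Elavl1 and fall to the right for Rpl37a, Rps21, Uqcr10, Mrpl14 and Krcc1 in all 3 mice.

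Iron genes were looked at with the hairpin that iron regulatory proteins bind, the iron-responsive element, whose loop reads CAGTG and 1 further base in DNA letters on a stem with an unpaired C. Ferritin and ferroportin carry it at the 5′ end, where binding blocks initiation, and the transferrin receptor carries several at the 3′ end, where binding protects the mRNA. These windows are printed because ferritin mRNAs are among the most abundant in the libraries and because the results on iron genes turn on these mRNAs; capitals mark the loop, letters are those of GENCODE M21 transcripts (GRCm38), 5′ to 3′ on the mRNA strand.
Fth1: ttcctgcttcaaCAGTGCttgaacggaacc
Ftl1: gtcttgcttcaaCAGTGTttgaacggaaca
Slc40a1: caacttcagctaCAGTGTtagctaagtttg
Tfrc first: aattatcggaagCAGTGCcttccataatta
Tfrc last: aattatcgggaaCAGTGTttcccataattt
The Fth1 window lies at chr19:9982732-9982761 (plus strand), that of Ftl1 at chr7:45459778-45459807 (minus strand), and that of Slc40a1 at chr1:45925464-45925493 (minus strand), all in exonic 5′ UTR. The Tfrc windows lie at chr16:32631219-32631248 and chr16:32631710-32631739 (plus strand) in the exonic 3′ UTR, the outer pair of 4 hairpins found there. A loop of CAGTG and then A, C or T with 5 stem pairs (G-T pairs allowed) and a C before the stem was present in the 5′ UTR of 11 of 10071 genes tested (0.109%), while the letters CAGTG alone were in 22.9%, on the mRNA strand only.

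Fth1, the ferritin heavy chain, had 24099, 30131 and 38632 TPM in TRAP RNA, against 53963, 73760.1 and 88299 TPM in total RNA (-1.22 ± 0.16, adjusted p = 0.00025). Ftl1, the light chain, had 4863, 6028 and 5067 TPM in TRAP RNA, against 10362, 17638 and 8536 TPM in total RNA (-1.13 ± 0.18, adjusted p = 0.0007). Neither gene overlapped between fractions. On the centred scale Fth1 was at -0.65, adjusted p = 0.0094, while Ftl1 was at -0.56, adjusted p = 0.054, just short of the threshold, and Fth1 lost its call under quantile normalization. The pseudogene Ftl1-ps1 holds the same 30 bases as Ftl1, so reads of Ftl1 may be split. Slc40a1, ferroportin, the iron exporter, had 11.6, 29.8 and 13.2 TPM in TRAP RNA, against 46.9, 67.0 and 51.4 TPM in total RNA (-1.65 ± 0.22, adjusted p = 0.00028; centred -1.08, adjusted p = 0.0018). Tfrc, the transferrin receptor, had 1.60, 2.92 and 1.67 TPM in TRAP RNA, against 11.2, 5.13 and 9.31 TPM in total RNA (-1.61 ± 0.54, adjusted p = 0.028; centred -1.04, adjusted p = 0.14). Ireb2, an iron regulatory protein, was at 4.38, 5.55 and 3.58 TPM in TRAP RNA, against 19.5, 17.1 and 16.6 TPM in total RNA (-1.78 ± 0.25, adjusted p = 0.00035). Of the 11 iron genes tested 8 were lower and 0 higher (centred 2 higher and 3 lower). Of the 11 genes with a 5′ hairpin 7 (63.6%) were lower and 0 higher (centred 4 lower and 2 higher). Those 7 include Fth1, Ftl1 and also Ftl1-ps1 (-1.48, limma adjusted p = 0.003), which is not independent of Ftl1 if reads are split. A hairpin was found in the 3′ UTR of 52 genes, of which 36 (69.2%) were lower and 2 higher (centred 11 lower and 5 higher). Over all genes tested 46.7% were lower. The coding sequences of Fth1 and Ftl1 are 546 and 549 bases long, and other nuclear coding genes of 300 to below 600 bases had a median of -0.06. Ftl1 was named for its hairpin after its values were seen.

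Of 42 translation factors 4 (9.52%) were higher and 18 (42.9%) lower, against 4.54% and 46.7% of all genes (centred 16 higher and 7 lower; median -0.34). The 4 higher, named after their values were seen, were the elongation factor subunits Eef1d (0.63 ± 0.17) and Eef1b2 (0.52 ± 0.17) and the eIF3 subunits Eif3k (0.41 ± 0.11) and Eif3i (0.32 ± 0.11). Among the lower, Eif4g2, a scaffold used in cap-independent initiation, had 58.0, 57.0 and 45.8 TPM in TRAP RNA, against 173, 139.8 and 116 TPM in total RNA (-1.39 ± 0.19, adjusted p = 0.00029). Eif4ebp2, a repressor that binds the cap-binding protein eIF4E, and Eif2s3x, the gamma subunit of eIF2, were at -1.37 ± 0.20 and -1.29 ± 0.15. Eif1a, a scanning factor, had 26.0, 33.4 and 0.181 TPM in TRAP RNA, against 61.8, 61.2 and 55.4 TPM in total RNA, so that its difference of -2.55 ± 0.65 (adjusted p = 0.0073) rests in large part on mouse KO-301. mRNAs of the integrated stress response, many of which carry short upstream reading frames, had 0 of 29 higher and 9 lower (centred 8 higher and 1 lower; median -0.20). Ppp1r15b, a phosphatase subunit that acts on eIF2-alpha, had 10.9, 20.8 and 12.3 TPM in TRAP RNA, against 44.6, 46.1 and 47.8 TPM in total RNA (-1.64 ± 0.22, adjusted p = 0.00029), and Sesn2, Cebpg and the asparaginyl-tRNA synthetase Nars were at -1.01, -0.77 and -0.72. Atf4, the transcription factor at the centre of this response, named after its values were seen, had 297, 796 and 446 TPM in TRAP RNA, against 339.8, 722 and 482 TPM in total RNA, and was not called on the deposited scale (-0.06 ± 0.13, adjusted p = 0.74) but higher on the centred one (0.51, adjusted p = 0.0093).

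Lists of RNA processing and chromatin genes had medians below the -0.58 of all genes. SR proteins and splicing regulators had 0 of 31 higher and 23 (74.2%) lower, against 46.7% of all genes, with a median of -0.72. Protein-coding genes as a whole had a median of -0.62. On the centred scale only 4 members of the list were lower and 1 higher. Ptbp3 had 15.1, 12.3 and 15.4 TPM in TRAP RNA, against 58.8, 64.3 and 59.3 TPM in total RNA (-2.02 ± 0.38, adjusted p = 0.0014), and the helicases Ddx5 and Ddx17 were at -1.54 ± 0.18 and -1.37 ± 0.13, called lower on both scales. Chromatin regulators with long coding sequences had 0 of 30 higher and 23 lower (centred 0 higher and 6 lower), with a median of -1.08 (-1.37, -0.69 and -1.07 by mouse). Chd2, a chromatin remodeller, had 2.52, 4.64 and 4.09 TPM in TRAP RNA, against 11.6, 14.2 and 11.9 TPM in total RNA (-1.54 ± 0.22, adjusted p = 0.00036), and Setd2, the H3K36 methyltransferase, had 7.05, 7.37 and 4.87 TPM in TRAP RNA, against 23.7, 13.0 and 20.4 TPM in total RNA (-1.41 ± 0.24, adjusted p = 0.00087). Trrap was at -1.59 ± 0.59 and Mycbp2, a ubiquitin ligase counted in this list, at -1.41 ± 0.34, and neither was called on the centred scale. Of 10 nonsense-mediated decay factors 5 (50%) were lower, near the 46.7% of all genes (centred 0 higher and 2 lower). Among the 5 were the kinase Smg1 with 1.09, 1.17 and 0.888 TPM in TRAP RNA, against 8.77, 6.40 and 7.65 TPM in total RNA (-2.06 ± 0.19, adjusted p = 9.7e-05) and Upf1 at -0.92 ± 0.23. Fold changes of genes near 1 TPM are understated by the pseudocount of 1.

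Oxygen-response genes had list medians near that of all genes. Of 6 subunits and partners of the hypoxia-inducible factors 2 (33.3%) were lower, against 46.7% of all genes, and 0 higher (centred 1 lower and 1 higher). Hif1a, the oxygen-labile subunit, had 6.74, 4.49 and 3.83 TPM in TRAP RNA, against 28.8, 20.2 and 16.3 TPM in total RNA, with no overlap (-1.91 ± 0.22, adjusted p = 0.00019; centred -1.35, adjusted p = 0.00071). Its partner Arnt was at -1.08 ± 0.39 (adjusted p = 0.035) and was not called on the centred scale (-0.51, adjusted p = 0.33). Of 31 other HIF-responsive genes 2 were higher and 17 lower (centred 4 higher and 4 lower), with a median of -0.64 against -0.58 over all genes. Ppp1r3b, a glycogen-targeting phosphatase subunit, had 0.284, 2.25 and 2.65 TPM in TRAP RNA, against 21.4, 16.01 and 15.8 TPM in total RNA (-2.90 ± 0.47, adjusted p = 0.00067). Gys1, glycogen synthase, was at -2.15 ± 0.57, lower on the deposited scale and not called on the centred one. P4ha1, a collagen prolyl hydroxylase, had 32.8, 44.1 and 63.9 TPM in TRAP RNA, against 95.6, 91.3 and 158 TPM in total RNA (-1.28 ± 0.14, adjusted p = 0.00013; centred -0.71, adjusted p = 0.0011). The 2 called higher, named after their values were seen, were Mif, a macrophage cytokine, with 1477, 1135 and 1679 TPM in TRAP RNA, against 1137, 994 and 1036 TPM in total RNA (0.42 ± 0.16, adjusted p = 0.04), and Fam162a at 0.36 ± 0.13. Glycolysis genes had 0 of 25 higher and 16 lower (centred 2 higher and 2 lower; median -0.54). Slc16a3, the lactate exporter, had 58.0, 61.3 and 72.4 TPM in TRAP RNA, against 168, 130.4 and 192 TPM in total RNA (-1.33 ± 0.17, adjusted p = 0.00026), and Pgam1, phosphoglycerate mutase, had 83.5, 50.2 and 62.1 TPM in TRAP RNA, against 206, 116 and 128.9 TPM in total RNA (-1.17 ± 0.20, adjusted p = 0.00088). Pdk1 and Pfkfb3, regulators of pyruvate entry and of phosphofructokinase, were at -1.22 ± 0.41 and -1.63 ± 0.58 and were not called on the centred scale.

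mRNAs reported as HuR targets had 1 of 36 higher and 23 (63.9%) lower, against 46.7% of all genes, with a median of -0.71 (-0.88, -0.32 and -0.83 by mouse). Centred counts were 5 higher and 5 lower. In hypoxic controls the median of this list was -0.83. The share called lower also went with 3′ UTR length over other genes. Of nuclear coding genes with a 3′ UTR of 1000 to below 3000 bases, the ribosomal proteins left out, 65.2% were lower. Their median was -0.83. The list was not matched to other genes by 3′ UTR length, so a part of HuR binding in its 63.9% was not tested. Xiap, an inhibitor of caspases, had 4.36, 4.32 and 3.12 TPM in TRAP RNA, against 28.3, 17.2 and 17.9 TPM in total RNA (-2.14 ± 0.33, adjusted p = 0.00056). Sirt1, a deacetylase, had 1.59, 2.03 and 1.09 TPM in TRAP RNA, against 10.03, 7.11 and 7.85 TPM in total RNA (-1.86 ± 0.25, adjusted p = 0.00029). Both kept clear of total RNA in all 3 mice. Tlr4, the endotoxin receptor, was at -1.28 ± 0.49 (adjusted p = 0.045; centred -0.72, adjusted p = 0.27). The member called higher, Casp2, named after its values were seen, had 12.0, 8.22 and 2.58 TPM in TRAP RNA, against 3.74, 2.07 and 1.26 TPM in total RNA (1.23 ± 0.40, adjusted p = 0.024). The list of AU-rich element binding proteins also holds Pum2, a Pumilio protein, which binds a different element. The mRNAs of the list had a median of -1.06 (-1.18, -0.68 and -1.01 by mouse), with 9 of 14 (64.3%) lower and 0 higher (centred 2 higher and 4 lower). In 12 of 14 all 3 TRAP values were below all 3 total RNA values, against 38.3% of all genes. Pum2, a Pumilio repressor, had 15.4, 11.8 and 13.4 TPM in TRAP RNA, against 52.2, 54.1 and 41.3 TPM in total RNA (-1.79 ± 0.29, adjusted p = 0.00071). Zfp36l1 and Zfp36l2, relatives of tristetraprolin that recruit deadenylases, were called lower without overlap. Zfp36l1 had 59.9, 67.9 and 24.3 TPM in TRAP RNA, against 165, 145 and 109 TPM in total RNA (-1.55 ± 0.29, adjusted p = 0.0015). Zfp36l2 had 33.8, 32.2 and 17.3 TPM in TRAP RNA, against 119, 60.9 and 68.9 TPM in total RNA (-1.54 ± 0.29, adjusted p = 0.0013). Elavl1 was at -1.68 ± 0.64 (adjusted p = 0.045), and its call was lost on the centred scale (-1.12, adjusted p = 0.2), with the TRAP value of mouse KO-176 far below the others.

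Immediate early genes and AU-rich-element-bearing regulators had 0 of 30 higher and 13 (43.3%) lower, near the 46.7% of all genes (centred 5 higher and 7 lower, median -0.62). Egr1, a zinc-finger transcription factor, had 27.9, 79.9 and 22.6 TPM in TRAP RNA, against 96.5, 163 and 108 TPM in total RNA (-1.66 ± 0.26, adjusted p = 0.00055). Egr2 had 22.9, 0.574 and 0.764 TPM in TRAP RNA, against 52.8, 6.58 and 4.32 TPM in total RNA (-1.68 ± 0.26, adjusted p = 0.00058), with mouse KO-176 above the rest in both fractions. Inflammatory cytokines and chemokines had 2 of 23 higher and 5 (21.7%) lower (centred 6 higher and 1 lower, median -0.33). Csf1, the macrophage growth factor, had 2.72, 2.55 and 1.95 TPM in TRAP RNA, against 11.4, 6.58 and 6.33 TPM in total RNA (-1.38 ± 0.26, adjusted p = 0.0015). Il1b, Cxcl2 and Ccl9 were called lower on the deposited scale, at -0.83 ± 0.29, -0.64 ± 0.18 and -0.57 ± 0.14, and were not called on the centred scale. Ccl4 and Cxcl16, the 2 called higher and named after their values were seen, had differences of 0.52 ± 0.15 and 0.46 ± 0.18. Interferon-stimulated genes had 2 of 30 higher and 15 (50%) lower, near the 46.7% of all genes (centred 3 higher and 7 lower, median -0.87). Mouse KO-301 was highest in both fractions for the members named. Ddx58, the RIG-I sensor, had 2.13, 2.18 and 12.2 TPM in TRAP RNA, against 28.3, 13.5 and 115 TPM in total RNA (-2.85 ± 0.54, adjusted p = 0.0015), and Ifih1, the MDA5 sensor, had 2.59, 2.53 and 4.07 TPM in TRAP RNA, against 10.5, 8.17 and 36.2 TPM in total RNA (-1.97 ± 0.38, adjusted p = 0.0017). Irf7 and Ifit2 were at -1.68 ± 0.35 and -1.61 ± 0.19. Bst2 (tetherin) had 820.5, 1917 and 9856 TPM in TRAP RNA, against 449, 1113 and 5609 TPM in total RNA (0.82 ± 0.14, adjusted p = 0.0009) and Ifi27l2a was at 0.68 ± 0.13, the 2 called higher, named after their values were seen.

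Lysosomal hydrolases and membrane proteins had 0 of 43 higher and 28 (65.1%) lower, against 46.7% of all genes (centred 6 higher and 6 lower; median -0.55). Tpp1, a tripeptidyl peptidase, had 21.9, 20.2 and 42.4 TPM in TRAP RNA, against 181, 139.6 and 178 TPM in total RNA (-2.59 ± 0.42, adjusted p = 0.00067), and Lipa, lysosomal acid lipase, had 175, 122 and 119 TPM in TRAP RNA, against 477, 332 and 325 TPM in total RNA (-1.44 ± 0.14, adjusted p = 0.00011). Cd164 and Npc1, the cholesterol transporter, were at -1.56 ± 0.28 and -1.19 ± 0.14. In the endoplasmic reticulum list 4 of 33 were higher and 14 (42.4%) lower (centred 7 higher and 4 lower). The 4 higher, named after their values were seen, were the small translocon and signal recognition subunits Sec61g (0.88 ± 0.20), Sec61b (0.78 ± 0.11), Srp9 (0.60 ± 0.12) and Ssr4 (0.34 ± 0.12). Hspa5, the chaperone BiP, had 29.0, 9.10 and 47.8 TPM in TRAP RNA, against 87.6, 108 and 162 TPM in total RNA (-2.25 ± 0.78, adjusted p = 0.031; centred -1.68, adjusted p = 0.13). Hyou1 and Ssr3 were at -1.49 ± 0.24 and -1.34 ± 0.13, lower on both scales. Secreted proteins had 0 of 29 higher and 15 (51.7%) lower (centred 8 higher and 6 lower). Apoe, the lipoprotein of macrophages, had 294, 127 and 605 TPM in TRAP RNA, against 795, 228 and 4412 TPM in total RNA (-1.71 ± 0.38, adjusted p = 0.0035), with mouse KO-301 highest in both fractions. Sparc, Timp1 and Thbs1 were at -2.73 ± 0.49, -1.94 ± 0.33 and -1.75 ± 0.24, and the summed fibroblast and stromal markers were lower in TRAP RNA as well, as given above; their part in these 3 values was not tested.

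The remaining lists had medians closer to that of all genes or few calls. Over all genes 4.54% were higher and 46.7% lower. Cytoskeletal genes had 2 of 29 higher and 8 lower (centred 11 higher and 3 lower). Myh9, non-muscle myosin heavy chain, had 19.0, 16.8 and 13.0 TPM in TRAP RNA, against 86.8, 44.1 and 50.98 TPM in total RNA (-1.79 ± 0.20, adjusted p = 0.00017), while Myl6, a myosin light chain named after its values were seen, had 3344, 2332 and 2442 TPM in TRAP RNA, against 2079, 1702 and 1636 TPM in total RNA (0.57 ± 0.10, adjusted p = 0.0012). Vcl, Msn and Flna were lower, at -1.77 ± 0.22, -1.31 ± 0.12 and -0.78 ± 0.20, and Tmsb10, the other member called higher, was at 0.56 ± 0.13. Of 30 genes of DNA replication and mitosis 15 were lower and 0 higher (centred 2 higher and 0 lower; median -0.53), with the lowest levels in mouse KO-301 in both fractions, as for Rrm2, a ribonucleotide reductase subunit, with 26.5, 31.9 and 0 TPM in TRAP RNA, against 63.0, 53.9 and 0.970 TPM in total RNA (-0.98 ± 0.20, adjusted p = 0.0021). Kif11, Cenpe and Mcm5 were at -1.08 ± 0.26, -0.99 ± 0.26 and -0.99 ± 0.18. Antigen presentation genes had 0 of 19 higher and 5 lower (centred 7 higher and 0 lower), with Nlrc5 at -1.35 ± 0.40 and Tapbp at -0.59 ± 0.12. Histone genes had 3 of 20 higher and 2 lower (centred 8 higher and 1 lower), with Hist2h2be at -1.61 ± 0.21 and the variant H2afv at 0.80 ± 0.10. None of 6 nuclear-retained long noncoding RNAs was called by limma. Malat1 had 105, 115 and 206 TPM in TRAP RNA, against 83.4, 181 and 295 TPM in total RNA (-0.28 ± 0.57, adjusted p = 0.7), so the fractions overlapped, and Neat1 had 96.1, 61.6 and 37.4 TPM in TRAP RNA, against 110.3, 64.2 and 108 TPM in total RNA (-0.59 ± 0.82, adjusted p = 0.57). In hypoxic controls the fitted differences of Malat1 and Neat1 were -2.20 and -2.09. They were -2.51 and -1.99 in normoxic labelled knockouts and -2.04 and -2.35 in normoxic controls. Limma's test of the difference between the hypoxic genotypes gave adjusted p = 0.998 and 0.998. Neither gene was called against normoxic labelled knockouts.

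**Figure D3:**
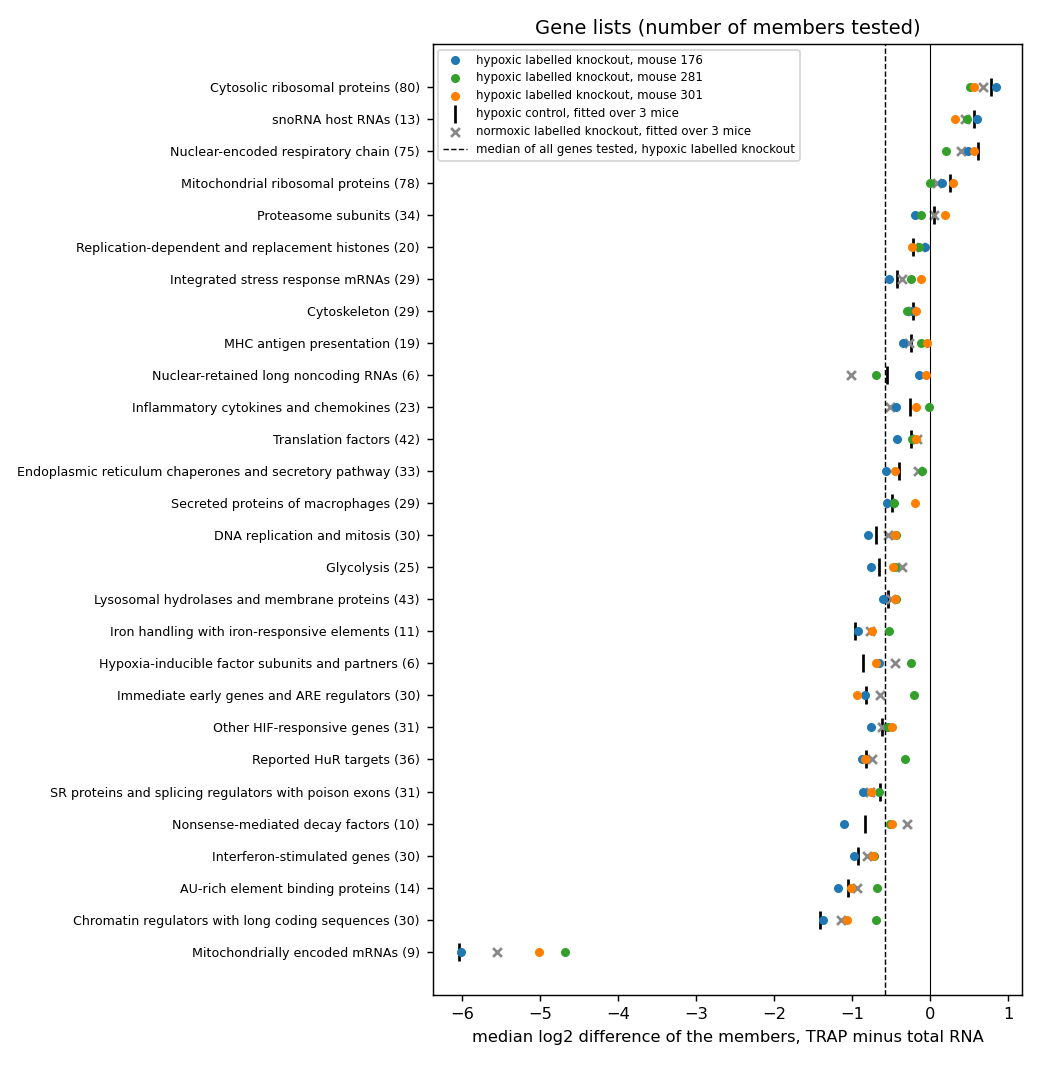
Median log2 difference, TRAP minus total RNA, of the members of each list, with a coloured point per mouse of the hypoxic labelled knockouts, a bar for the hypoxic controls and a cross for the normoxic labelled knockouts, and a dashed line at the all-gene median of -0.58. Mitochondrially encoded mRNAs lie near -5.32, ribosomal proteins near 0.62, and the 3 groups lie close together in most lists.

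The difference went with the length of the mRNA. Over 10106 nuclear coding genes, the ribosomal proteins left out, the median was 0.28 for a coding sequence under 300 bases (237 genes), -0.06 from 300 to below 600, -0.45 from 600 to below 1200, -0.73 from 1200 to below 2400, -0.90 from 2400 to below 4800 and -0.95 for 4800 or more (389 genes). Calls followed: 35.0% of the shortest class were higher and 9.28% lower, against 0.257% and 70.4% of the longest. On the centred scale 145 of the 237 shortest were higher and 7 lower, against 8 and 89 of the 389 longest. By 3′ UTR length the medians were -0.20 (under 100 bases), -0.19 (100 to below 300), -0.46 (300 to below 1000), -0.83 (1000 to below 3000) and -1.04 (3000 or more). Within the class of 300 to below 600 coding bases, genes with a 3′ UTR under 1000 bases had a median of 0.12 and those with a longer one -0.50, so both lengths went with the difference. Spearman's rho with spliced length was -0.59 across these genes, a description over genes that share 6 libraries. Ribosomal proteins stood above other genes of their length, since 58 ribosomal protein genes with under 600 coding bases had a median of 0.74, against -0.01 for 1427 other genes of that length. Levels went with length too, and among genes with a mean of at least 250 TPM the median was 0.35 under 600 coding bases and -0.32 from 600 to below 2400.

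AU-rich pentamers rose with 3′ UTR length, and the 2 were looked at together. The motif searched was ATTTA on the mRNA strand of the 3′ UTR, copies that share letters being counted once. With no copy the median was -0.34, with 1 or 2 copies -0.60, with 3 to 5 copies -0.87 and with 6 or more -1.07, and 74.7% of the last class were lower, against 46.7% of all genes. On the centred scale 567 of its 1489 genes were lower and 53 higher. Within 3′ UTRs of 300 to below 1000 bases the medians were -0.53 with a copy and -0.37 without, and within 1000 to below 3000 bases -0.86 and -0.67. The sign of the gap was the other way under 100 bases, with -0.12 with a copy (39 genes) and -0.21 without, and at 3000 bases or more the medians were -1.05 with a copy and -0.61 in the 22 genes without. In hypoxic controls the medians for 300 to below 1000 and 1000 to below 3000 bases, in the same order, were -0.51, -0.35, -0.88 and -0.72. GC content also went with the difference, with medians of -0.89 for transcripts under 45% GC and -0.37 for those of 55% or more. Such a match is a string of letters in a reference transcript, not a measured HuR site.

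The gap between the shortest and the longest coding class was 1.61, 0.80 and 1.36 in hypoxic labelled knockouts KO-176, KO-281, KO-301, and 1.94, 1.55 and 1.71 in hypoxic controls HET-97, HET-102, HET-129. The means were 1.26 ± 0.41 in hypoxic labelled knockouts and 1.74 ± 0.19 in hypoxic controls (SD, n = 3 each), and an exact two-sided permutation test gave p = 0.2, where 0.1 is the smallest that 3 against 3 allow. In normoxic labelled knockouts the gap was 1.47, 0.80 and 1.33, so mouse KO-281 had the smallest gap under both oxygen levels.

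**Figure D4:**
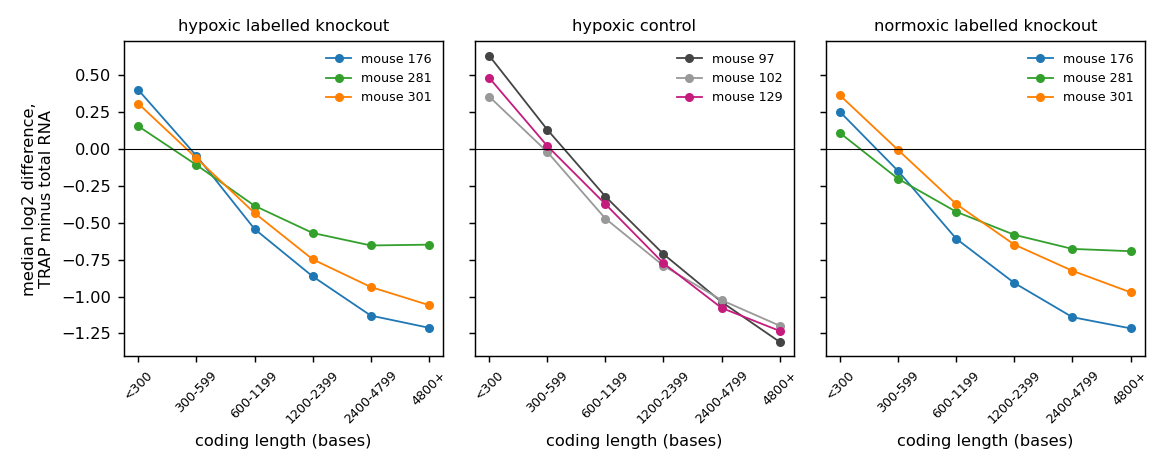
Median log2 difference, TRAP minus total RNA, of nuclear coding genes, the ribosomal proteins left out, in 6 classes of coding length, with a line per lysate. All 9 lysates fall from above 0 in the shortest class to -0.65 or lower in the longest, and mouse KO-281 has the shallowest lines.

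Whether the TRAP-to-total difference itself differed between groups was tested in the same model. Against hypoxic controls, 0 of 11378 genes passed limma's adjusted threshold, with 424 (3.73%) at an unadjusted p under 0.05, and 0 passed in any alternative run. The median of the difference between groups was -0.01 and its median SE was 0.33 on the log2 scale, so a p above the threshold does not show that the groups were alike. Mitochondrially encoded mRNAs had list medians of -5.32 in hypoxic labelled knockouts and -6.03 in hypoxic controls, ribosomal proteins 0.62 and 0.78, chromatin regulators -1.08 and -1.41, and reported HuR targets -0.71 and -0.83. For Fth1 the fitted differences were -1.22 and -1.0002, and for Hif1a -1.91 and -1.55. None was called; 3 genes with low p are given, chosen after their values were seen for a known role, and Gm16174, Gm26740 and Hk1os (adjusted p = 0.23, 0.23 and 0.31) also stood ahead of Rn7sk and Med12. Spr, sepiapterin reductase of biopterin synthesis, had lysate differences of -0.33, -0.31 and 0.05 in hypoxic labelled knockouts, against 1.84, 1.56 and 1.99 in hypoxic controls, and -1.99 ± 0.30 between them (adjusted p = 0.23). Rn7sk, the 7SK RNA that holds back transcription elongation, had -2.69, -2.78 and -2.74 in hypoxic labelled knockouts, against -4.05, -4.35 and -5.15 in hypoxic controls (1.78 ± 0.33, adjusted p = 0.39). Med12, a Mediator subunit, had 0.72, 0.20 and 0.70 in hypoxic labelled knockouts and -0.56, -1.06 and -0.63 in hypoxic controls (1.29 ± 0.25, adjusted p = 0.43). These 3 genes had no overlap between the 3 mice and 3 other mice, but they were chosen for low p, so this adds no support. Normoxic controls HET-97, HET-102, HET-129 had 0.17, 0.34 and -0.34 for Spr, and normoxic labelled knockouts -0.18, -0.90 and 0.27. For Med12 these values were 0.47, -0.06 and -0.01, and 0.12, 0.29 and 0.18. For both genes the hypoxic controls thus stood apart from the other groups.

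Against normoxic labelled knockouts, from other cultures of the same 3 mice, 1 gene passed (0.00879%) and 337 (2.96%) had an unadjusted p under 0.05. The gene was Slc25a36, a mitochondrial pyrimidine nucleotide carrier. In hypoxic labelled knockouts it had 7.47, 0.190 and 5.21 TPM in TRAP RNA, against 25.4, 1.62 and 21.6 TPM in total RNA. In normoxic labelled knockouts it had 0.291, 0.327 and 0.138 TPM in TRAP RNA, against 24.6, 29.3 and 21.6 TPM in total RNA. The lysate differences were thus -1.64, -1.14 and -1.86 in hypoxia and -4.31, -4.51 and -4.31 in normoxia, with no overlap, and the fitted difference between them was 2.83 ± 0.31 (adjusted p = 0.013). Mouse KO-281 had little Slc25a36 in either hypoxic library, so the pseudocount of 1 TPM limits how negative its hypoxic difference could be. Its TRAP value was lower in hypoxia than in normoxia. The call was lost without mouse KO-281 or KO-301, with no replicate block, with a mouse-by-fraction replicate block and in the 12 knockout libraries alone. Without mouse KO-176 another gene was called in its place. Hypoxic controls lay at -1.59, -1.49 and -2.14 and normoxic controls at -1.46, -1.72 and -2.42, both close to the hypoxic labelled knockouts. List medians in hypoxic and normoxic labelled knockouts were 0.62 and 0.67 for ribosomal proteins, -0.54 and -0.37 for glycolysis and -0.64 and -0.62 for other HIF-responsive genes.

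**Figure D5:**
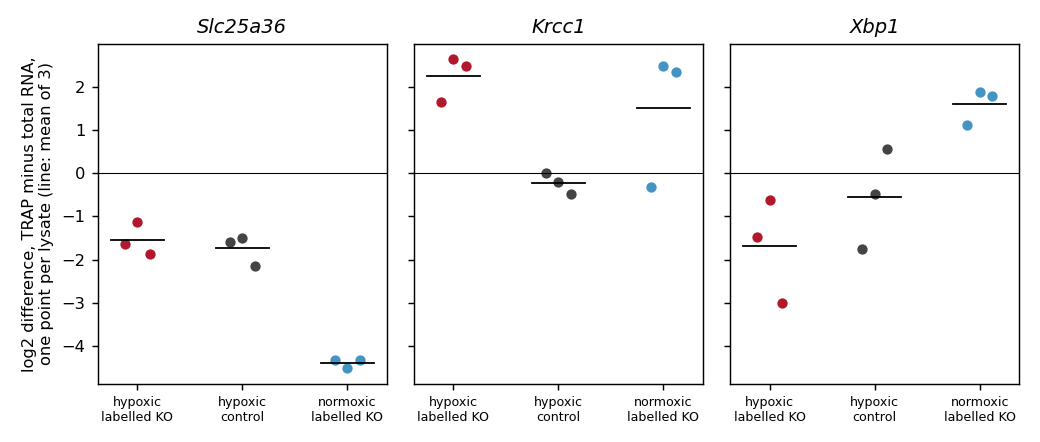
Log2 difference, TRAP minus total RNA, of Slc25a36, Krcc1 and Xbp1 with a point per lysate in hypoxic labelled knockouts, hypoxic controls and normoxic labelled knockouts, and a bar at the mean of 3. Slc25a36 lies between -1.14 and -1.86 in hypoxic labelled knockouts and between -4.31 and -4.51 in normoxic ones, Krcc1 lies above 0 in all hypoxic labelled knockouts and below 0 in all hypoxic controls, and Xbp1 below 0 in hypoxic and above 0 in normoxic labelled knockouts.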

How the data were processed

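Bone marrow-derived macrophages of 6 mice at 2 oxygen levels gave 12 lysates and 24 poly(A) libraries, 12 of total RNA and 12 of TRAP RNA. The deposited values are TPM per gene, made by the authors. Per the submitters' processing notes HISAT, DESeq2 and the GRCm38 build were used; for versions, the counting tool and the use of strand nothing was given in the sources used here, so reads of overlapping or antisense genes, pseudogenes and gene copies may be shared. Read depth cannot be had from TPM, and no counting interval is given. Another 24 per-mouse columns derived by the authors were not used, and no pair of libraries was identical.

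From these values log2(TPM + 1) was fitted with limma 3.58.1 (trend) in R 4.3.3 over all 24 libraries, with each lysate as a block and the TRAP-to-total difference in each genotype and oxygen group as coefficients; SE and moderated p come from this fit, p-values were adjusted by Benjamini-Hochberg over 11378 genes and called under 0.05. The script was tested on simulated data. The labels' mouse numbers pair the fractions, which the extraction protocol says were split from a common lysate: deviations from group means over genes correlated at 0.56, 0.51 and 0.76 between fractions of mice KO-176, KO-281, KO-301. Without the block 197 genes were higher and 3086 lower. Members and gene lists were chosen with earlier results of these data known. Genes named were Elavl1 and Rpl10a, the 12 of largest difference in each direction among genes called whose fractions did not overlap and whose mean reached 4 TPM, 2 to 4 members of each list by the same order (those of highest mean where none was called), and, as an addition made after seeing the data, the 12 nuclear protein-coding genes in each direction; others are said to be named after their values were seen. Lists were described by counts and medians. Lengths, UTRs and motifs come from 1 GENCODE M21 transcript per gene (GRCm38), which 147 identifiers did not match; 27 symbols written as dates in the tables were not named. Alternatives were a pseudocount of 0.1 TPM, other filters, rescaling, quantile normalization, centring (chosen after seeing the data), other blocks and leaving out each mouse. Python 3.11.15, pandas 2.3.3, scipy 1.17.1 and matplotlib 3.10.9 were used.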

Additional observations from a re-analysis of the deposited data

Results flagged for a closer look

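In 4 named genes the TRAP-to-total difference was unlike between the hypoxic labelled knockouts and another group, and the group that departed from the rest varied by gene. Slc25a36 passed the test of the difference between hypoxic and normoxic labelled knockouts, at 2.83 ± 0.31 (limma, adjusted p = 0.013). It lost its call under the settings named above. The TRAP-to-total difference was higher in hypoxia in 3 of 3 mice. In KO-281, though, total RNA had 1.62 TPM in hypoxia and 29.3 TPM in normoxia, and TRAP RNA had 0.190 and 0.327 TPM. Here the normoxic labelled knockouts stood apart, since both control groups lay near the hypoxic labelled knockouts. For the other 3, every lysate of the hypoxic labelled knockouts moved one way and every lysate of the other group the opposite way; limma's test of the difference did not call them.

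Xbp1, the transcription factor of the unfolded protein response whose mRNA is spliced by Ire1 at the endoplasmic reticulum, had lysate differences of -1.47, -0.61 and -2.996 in mice KO-176, KO-281, KO-301 in hypoxia, against 1.12, 1.87 and 1.78 in normoxia. The difference between oxygen levels was -3.28 ± 0.64 (adjusted p = 0.87). Its TPM was 14.5, 98.4 and 17.1 in TRAP RNA and 42.0, 151 and 143 in total RNA in hypoxia, against 72.4, 91.7 and 89.7 in TRAP RNA and 32.8, 24.4 and 25.4 in total RNA in normoxia. Hypoxia thus had more Xbp1 than normoxia in total RNA of each mouse and, but for mouse KO-281, less in TRAP RNA. Hypoxic controls lay at -1.76, -0.47 and 0.55 and normoxic controls at -0.90, -0.68 and 0.45.

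Pkig, an inhibitor of protein kinase A, had 1.64, 0.79 and 1.77 in hypoxia, against -0.57, -0.995 and -1.98 in normoxia, a difference of 2.58 ± 0.59 (adjusted p = 1.00). In hypoxic controls it had 1.302, 0.65 and 2.45, and in normoxic controls 0.34, -1.51 and 0.47. Krcc1 had 1.65, 2.63 and 2.47 in hypoxic labelled knockouts, against -0.01, -0.20 and -0.48 in hypoxic controls, a difference of 2.48 ± 0.76 (adjusted p = 0.998). In normoxic labelled knockouts Krcc1 had -0.31, 2.47 and 2.34, so that 2 of 3 mice were high there too. Its fitted difference in normoxic controls was 1.29, so a difference above 0 was not particular to the hypoxic labelled knockouts.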

How the results depend on the processing

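Counts of calls depended on scaling, and so did signs over all genes, since 2177 of 11378 fitted differences were above 0 as deposited and 5625 with centring. Against 516 genes higher as described, there were 957 after rescaling, 1636 after quantile normalization, 1933 with centring (chosen after seeing the data) and 197 with no replicate block. Against 5318 genes lower, there were 1509 after quantile normalization, 1629 with centring and 3086 with no replicate block. Leaving out each mouse gave 288 to 475 genes higher, fewest without KO-176 (288) and KO-301 (316), and 3465 to 4817 lower, fewest without KO-176. A pseudocount of 0.1 TPM, other filters and the 6 libraries alone kept both counts within 1.5 times. The difference from hypoxic controls had 0 calls in every setting run. That from normoxic labelled knockouts had 0 calls with no replicate block, 0 with a mouse-by-fraction replicate block, 0 in the 12 knockout libraries alone, and 0 to 1 leaving out each mouse (0 without KO-281 or KO-301). Among named genes 1332 values over all settings kept direction and call, 229 lost the call and 10 changed sign: with centring Malat1 (0.29), Airn (0.31), H2afy (0.041), Psmc2 (0.085), Psmc6 (0.087), H2-Q6 (0.084) and H2-Q4 (0.20), with quantile normalization Dleu2 (0.042) and Airn (0.43), and without KO-281 Airn (0.13; -0.75 without KO-301). List medians relative to all genes changed sign with no filter for translation factors (-0.12), endoplasmic reticulum genes (-0.12), inflammatory cytokines and chemokines (-0.11) and MHC antigen presentation (-0.0063), and with quantile normalization for translation factors (-0.18), endoplasmic reticulum genes (-0.097) and cytoskeleton (-0.20). The cause was not tested. Depth is unknown, and 3 lysates per group limit the precision.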

Other observations

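Transcripts outside the protein-coding class were divided between the fractions by type. Of 503 processed pseudogenes 18.3% were higher in TRAP RNA of hypoxic labelled knockouts and 5.96% lower, against 4.54% and 46.7% of all genes (on the centred scale 264 higher and 5 lower), with a median of 0.33, and such copies can take reads of their parent mRNAs. The 6 rRNA genes tested had a median of 2.60 and all were higher on both scales. Small nuclear RNAs, 10 tested, had a median of -1.16 with 0 higher and 3 lower (centred 0 and 0), and miscellaneous RNAs, 8 tested, had -1.87 with 0 higher and 4 lower (centred 0 and 3). Long intergenic noncoding RNAs, 156 tested, had a median of -0.31 with 8 higher and 36 lower (centred 24 and 10), and 154 antisense genes had -0.23 with 3 higher and 25 lower (centred 23 and 7). Protein-coding genes, 10195 tested, had a median of -0.62 with 381 higher and 5133 lower (centred 1550 and 1571). Counts for classes with under 20 members rest on few genes, and libraries were poly(A)-selected, so most of these small RNAs lack the tail the libraries select.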
